A study of Homo sapiens with 8 samples.

Results

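Transcript levels of 37 genes that set the threshold for programmed cell death were examined in SH-SY5Y cells before and after differentiation with 9-cis retinoic acid. The genes were chosen by a list of symbols, which was drawn up with earlier results of these data known. They comprise death receptors, caspases, the apoptosome and its mitochondrial partners, inhibitor of apoptosis proteins, the BCL2 family, and targets and regulators of p53. All 37 were found among the 52719 genes to which transcripts were assigned.

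SH-SY5Y is an established human neuroblastoma line that takes on neuron-like features under retinoids. Polyadenylated RNA was sequenced from 4 undifferentiated libraries (replicates 17 to 20) and from 4 libraries of cells given 1 µM 9-cis retinoic acid for 7 days (replicates 21 to 24). Neither a vehicle nor a culture time is recorded for the undifferentiated cells, so the agent and the time in culture cannot be told apart. Undifferentiated replicates 17 and 18 were run on lane 7 and the other 6 libraries on lane 8. No label states that the replicates came from separate cultures, so the spread behind each p-value may be only technical.

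In the intrinsic pathway, BH3-only proteins sense stress and bind the anti-apoptotic members of the BCL2 family. This frees BAX and BAK1 to open pores in the outer mitochondrial membrane. Cytochrome c then leaves the mitochondria and assembles with APAF1 into the apoptosome, which activates CASP9 and through it the executioner caspases. The extrinsic pathway starts at death receptors and runs through CASP8, and p53 raises the transcription of genes in both. Neuroblastoma cells are known for silencing of CASP8 and for their dependence on anti-apoptotic BCL2 proteins.

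Levels are given as TPM, which counts the transcripts of a gene per fixed total with length taken into account, summed over the transcripts of each gene. A gene was tested when its mean over the 8 libraries was at least 1 TPM. Differences are on the log2(TPM + 1) scale, differentiated minus undifferentiated, which understates the change of genes with low levels. They were tested with limma, and a gene was called when its p, adjusted by Benjamini-Hochberg over all 17077 tested genes, was under 0.05.

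Because several of these genes are textbook p53 targets, their promoter windows were searched for the p53 response element. The windows came from RefSeq (GRCh38.p14) and ran from 250 bases before to 50 bases after each transcript start. A site was counted as a pair of abutting p53 consensus half-sites of 10 bases each, read on both strands, with at least 17 of the 20 positions matched and the invariant C and G of each half-site present. At least 1 window was held for 27 of the 37 genes. A site was present in 4 of them (14.8%), against 1.37% of all 27305 genes with a window. The 27 genes held 52 windows and all genes 35116, of which 1.12% had a site. Since known p53 targets were put on the list, the difference in share is a description and no test. The 4 sites are printed 5′ to 3′ on the strand of the gene with 5 flanking bases on each side, and capitals mark the 20-base element.
FAS: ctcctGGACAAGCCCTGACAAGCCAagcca
MDM2: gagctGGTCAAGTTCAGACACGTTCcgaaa
PMAIP1: gtcggGAGCGTGTCCGGGCAGGTCGcgctc
SESN1: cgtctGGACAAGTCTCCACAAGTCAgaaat

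The FAS stretch lies at chr10:88991304-88991333 on the plus strand and matched 18 positions. It lay 122 bases before a RefSeq start inside the gene, where GENCODE 29 annotates exons of some transcripts and introns of others. The MDM2 stretch, at chr12:68808918-68808947 on the plus strand, also matched 18 positions and is intronic, 94 bases before the start of the internal promoter that is known to respond to p53. The PMAIP1 stretch, at chr18:59899806-59899835 on the plus strand, matched 17 positions and lay upstream of every annotated transcript of the gene. The SESN1 stretch, at chr6:109009013-109009042 on the minus strand, matched 17 positions and is intronic. As a retinoid was applied, direct repeats of AGGTCA or AGTTCA or GGGTCA or GGTTCA spaced by 1, 2 or 5 bases were searched on both strands of the same windows. They were found in 0 of the 27 genes, against 0.319% of all genes. A match is a description of these letters only, and a missing match says nothing about sequence outside the window.

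Of the 37 genes, 32 passed the minimum level, and 21 of these rose (65.6%) while 2 fell (6.25%). Among all tested genes 33.9% were called higher and 17.4% lower, 51.3% in total. The median difference was 0.45 over the 32 genes and 0.10 over all genes tested. In 23 of the 32 genes (71.9%) the 4 differentiated libraries lay wholly above or wholly below the 4 undifferentiated ones, against 49.6% of all tested genes. In bulk RNA, a change in the share of cells that express a gene cannot be told apart from a change in the RNA of each cell. TNFRSF10A, TNFRSF10D, CASP10, BIK and HRK were below the minimum. CASP8 passed it only through the differentiated group.

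**Figure D1:**
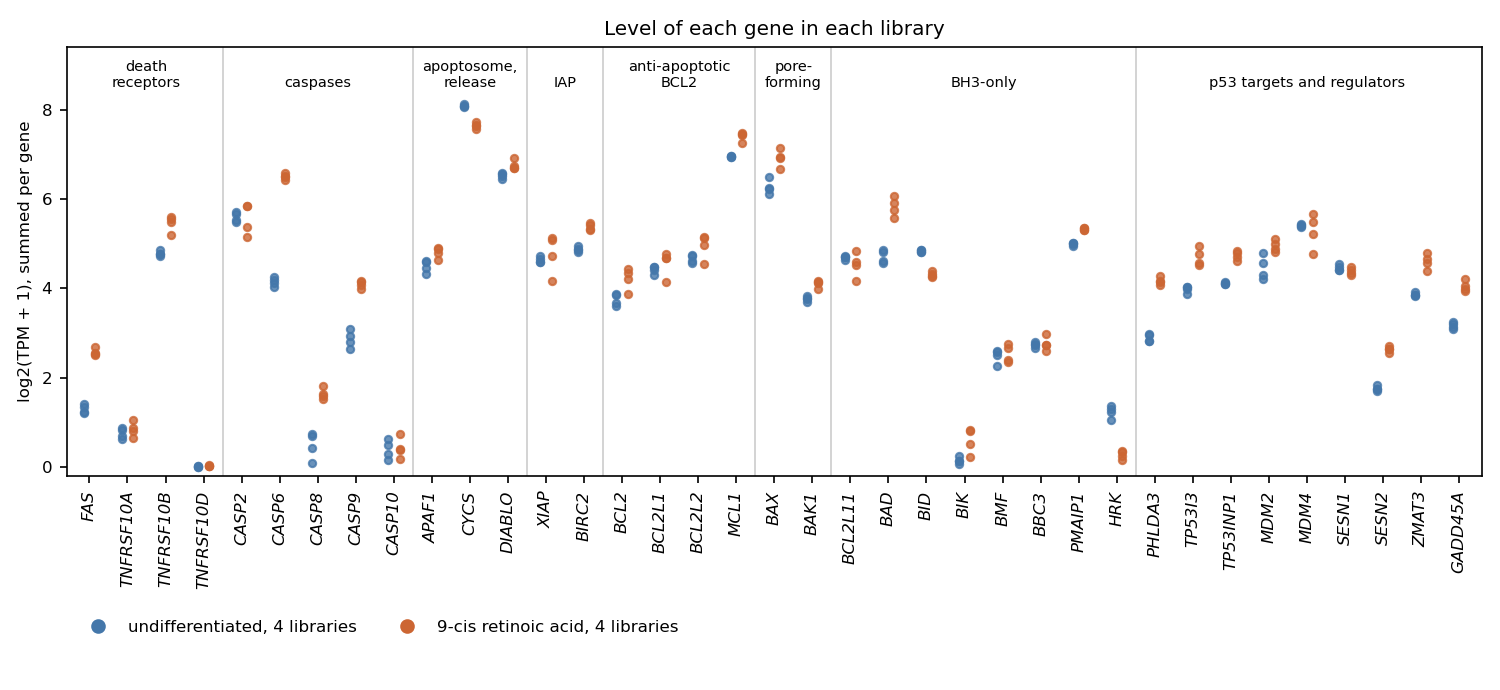
Level of each of the 37 genes in each library, as log2(TPM + 1), with undifferentiated libraries in blue and differentiated libraries in orange, grouped by role. CYCS, BID and the untested HRK lie wholly lower after 9-cis retinoic acid, and 21 tested genes lie wholly higher.

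Pro-apoptotic and anti-apoptotic genes were counted apart. Of all tested genes, 33.9% were called higher and 17.4% lower. Of the 17 tested pro-apoptotic genes 11 rose, 2 fell and 4 were not called, with a median difference of 0.33. Of the 6 tested anti-apoptotic genes 3 rose and 3 were not called, with a median of 0.37. The 3 that were not called, XIAP, BCL2L1 and BCL2L2, had 1 low differentiated library in common, replicate 22. Without that library all 6 anti-apoptotic genes were called higher, with a median of 0.46, and the pro-apoptotic counts were again 11 and 2. Over the whole set, 24 genes were then called higher and 2 lower, against 38.6% and 18.1% of all genes. As replicate 22 was low in XIAP, BCL2L1 and BCL2L2, leaving it out was bound to raise their differences. With replicate 21 left out instead, XIAP (0.03), BCL2L1 (0.12) and BCL2L2 (0.23) were again not called.

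Replicate 22 stood apart from the other differentiated libraries, most in long transcripts. Over the 2667 tested genes with a mean transcript length of at least 4000 bases, its median was lower by a log2 difference of -0.31 than the other differentiated libraries. That median was -0.15 in genes under 1000 bases, -0.03 from 1000 to 2000 bases and -0.15 from 2000 to 4000 bases. Replicate 21 stood off the other way, with a median of 0.24 in the longest class. Among the 32 genes replicate 22 was the lowest differentiated library in 17 and the highest in 10. Over all tested genes these shares were 54.7% and 21.6%. Its lowest values relative to the other differentiated libraries were in XIAP (-0.82), MDM4 (-0.70), BCL2L1 (-0.56), CASP2 (-0.54), BCL2L2 (-0.52), BCL2L11 (-0.50) and BCL2 (-0.45). Its highest were in BAD (0.33), TP53I3 (0.32), BAX (0.30) and BBC3 (0.30). Length did not order the genes fully, since the mean transcript length was 1796 bases for BCL2L1 and 843 bases for BAD and for BAX, whose length class as a whole was low. The part of replicate 22 in the results was tested only by leaving it out.

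**Figure D2:**
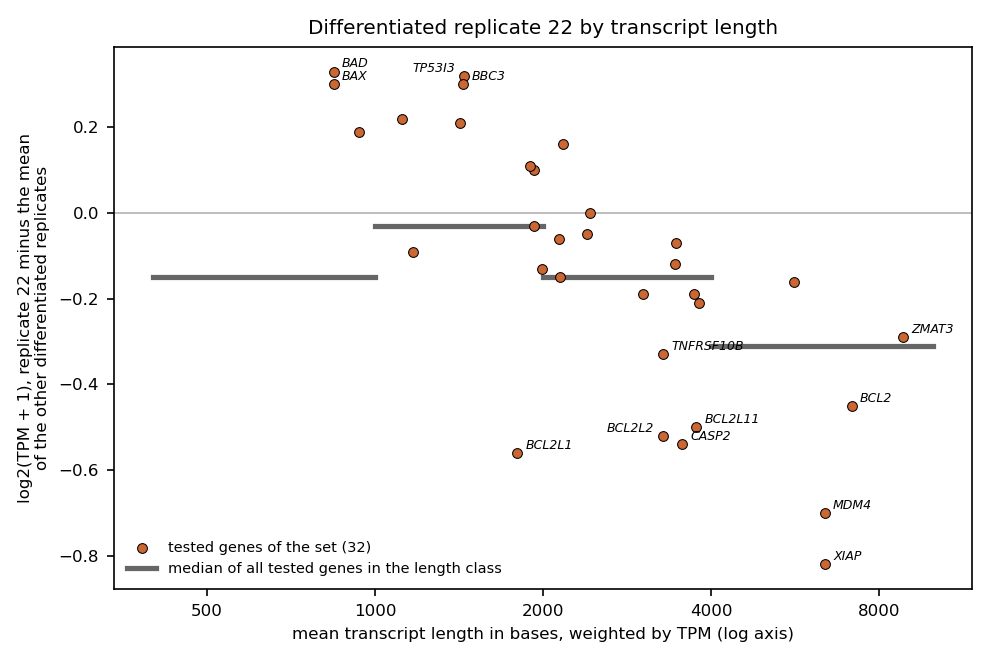
Difference between differentiated replicate 22 and the mean of the other differentiated replicates in log2(TPM + 1), against the TPM-weighted transcript length (log axis), for the 32 tested genes (points). Grey bars give the median of all tested genes in 4 length classes, which is -0.31 at 4000 bases or more, and XIAP (-0.82) and MDM4 (-0.70) lie below it.

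The scaling of the libraries also bears on these counts. With median-of-ratios scaling the median of all genes moved from 0.10 to -0.02, and the share of calls that were higher moved from 66.1% to 51.0%. Of the 32 genes 19 were then called higher and 4 lower, against 27.1% and 26.1% of all genes. With quantile normalization the median of all genes was -0.07 and 45.0% of calls were higher, and 17 of the 32 genes were called higher and 4 lower, against 24.4% and 29.9%. The median of the 32 genes was 0.33 and 0.30 in these fits. Of the 17 pro-apoptotic genes, 10 were called higher and 3 lower with median-of-ratios scaling (median 0.21). With quantile normalization 8 were called higher and 3 lower (median 0.15). Of the 6 anti-apoptotic genes, 3 were called higher and 0 lower in both fits (medians 0.24 and 0.21). Within lane 8 alone 20 of the 32 genes were called higher and 2 lower, against 26.0% and 11.0%. For 19 of the 23 called genes the call was the same in each of the 16 limma alternatives that tested the gene. FAS, CASP8 and SESN2 are among these 19 and were not tested with a minimum of 5 TPM. APAF1, DIABLO, BAK1 and MDM2 lost it in at least 1.

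**Figure D3:**
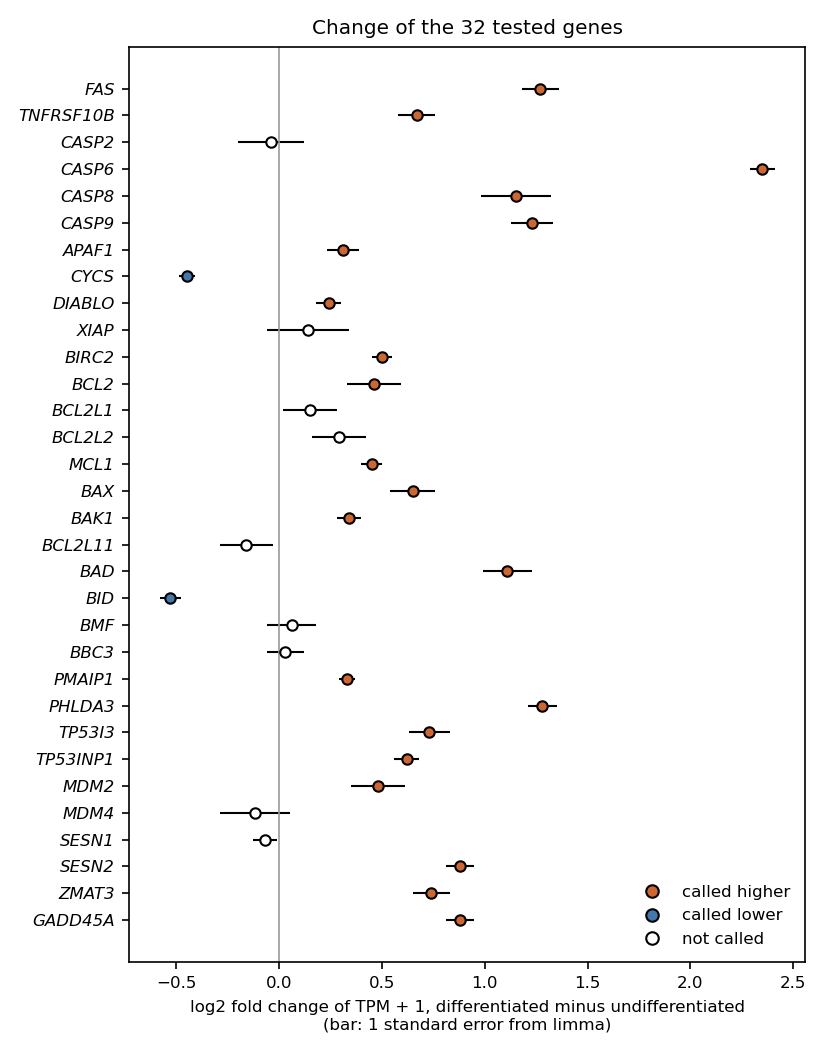
Difference in log2(TPM + 1) between differentiated and undifferentiated cells for the 32 tested genes, with bars of 1 standard error from limma. CASP6 shows the largest difference (2.35), and CYCS (-0.45) and BID (-0.53) are the genes called lower.

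At the cell surface, both death receptors above the minimum rose. FAS, the receptor for FAS ligand, stood at 1.64, 1.33, 1.32 and 1.52 TPM in undifferentiated replicates 17 to 20 and at 5.48, 4.74, 4.86 and 4.65 TPM in differentiated replicates 21 to 24. The groups were far apart, with a log2 difference of 1.27 (SE 0.09, limma adjusted p = 7.72e-06). TNFRSF10B, a receptor for TRAIL with a death domain, was measured at 26.4, 25.5, 26.2 and 28.1 TPM before and at 47.1, 35.8, 43.4 and 45.8 TPM after differentiation. Replicate 22 was the lowest of the differentiated libraries and still above every undifferentiated one (0.67, SE 0.09, limma adjusted p = 0.000272). Over protein-coding transcripts alone TNFRSF10B was also called higher (0.71, SE 0.17, limma adjusted p = 0.00484). The groups overlapped there, with replicate 22 at 17.5 TPM and undifferentiated replicate 20 at 18.0 TPM. TNFRSF10A, the other TRAIL receptor with a death domain, was at 0.690 ± 0.124 and 0.809 ± 0.203 TPM (SD, n = 4 in each group), and the groups overlapped. The decoy receptor TNFRSF10D was between 0 and 0.0360 TPM in every library.

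Among the caspases, CASP6, CASP8 and CASP9 rose and CASP2 was not called. CASP6, an executioner caspase that cleaves nuclear lamins, showed the largest difference of the whole set. Its gene lies at chr4:109688622-109703583 (GRCh38, minus strand). Undifferentiated libraries held 17.3, 18.1, 16.3 and 15.3 TPM and differentiated ones 89.8, 85.3, 89.2 and 94.3 TPM. The means were 16.8 ± 1.24 and 89.7 ± 3.71 TPM (SD, n = 4), a ratio of 5.35, and the log2 difference was 2.35 (SE 0.06, limma adjusted p = 3.39e-08). In undifferentiated cells the level of CASP6 was below that of CASP2, and in differentiated cells it was the highest of the 4 tested caspases.

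CASP9, the initiator caspase of the apoptosome, was measured at 6.59, 5.23, 7.46 and 5.94 TPM in undifferentiated cells and at 16.6, 14.9, 16.8 and 15.8 TPM in differentiated cells. Every differentiated library was above every undifferentiated one, and the log2 difference was 1.23 (SE 0.10, limma adjusted p = 1.63e-05). CASP8, the initiator at death receptors, was near the bottom of the scale before differentiation, at 0.629, 0.350, 0.662 and 0.0698 TPM. It lay between 1.85 and 2.52 TPM in the differentiated libraries, with means of 0.428 ± 0.277 and 2.12 ± 0.287 TPM (SD, n = 4). The groups did not overlap (1.15, SE 0.17, limma adjusted p = 0.000569), but since CASP8 was tested only because of its differentiated level, the test was open to it in this direction only. With a pseudocount of 0.1 in place of 1 the difference was 2.28 (adjusted p = 0.00432). CASP8-205 (538 residues) was the transcript of CASP8 with the highest mean after differentiation. It was listed at 0 in all undifferentiated libraries and at 1.25, 0.647, 0.662 and 1.54 TPM in the differentiated ones. In replicates 22 and 23 CASP8-203 (464 residues) was higher, at 0.846 and 0.803 TPM. CASP8-201 (395 residues) was at 0, 0.337, 0.475 and 0 TPM before and at 0 in all libraries after. CASP10, a related initiator whose gene neighbours CASP8 on chromosome 2, remained at 0.321 ± 0.193 and 0.358 ± 0.234 TPM (SD, n = 4).

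CASP2, an initiator caspase activated on the PIDDosome, was at 49.8, 51.0, 44.0 and 44.8 TPM before and 56.3, 34.5, 40.5 and 56.4 TPM after differentiation. The differentiated libraries spread to both sides of the undifferentiated ones, with a log2 difference of -0.04 (SE 0.16, limma adjusted p = 0.850).

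The proteins of the apoptosome moved in different directions. CYCS, cytochrome c, was the most abundant transcript of the set and fell. It was measured at 271, 265, 279 and 269 TPM in undifferentiated cells and at 188, 210.3, 200.2 and 197 TPM in differentiated cells. No library of one group reached the other, with a log2 difference of -0.45 (SE 0.04, limma adjusted p = 3.79e-05). APAF1, the scaffold of the apoptosome, was at 23.1, 20.8, 19.1 and 23.5 TPM before and 28.7, 24.0, 26.7 and 28.5 TPM after. The lowest differentiated library was just above the highest undifferentiated one (0.31, SE 0.08, limma adjusted p = 0.0148). This call was lost within lane 8 (0.33, adjusted p = 0.0689), with quantile normalization (0.15, adjusted p = 0.0820) and over protein-coding transcripts alone (0.15, adjusted p = 0.252). DIABLO, which relieves caspases of their inhibitors, was at 90.8 ± 3.86 and 108 ± 7.59 TPM (SD, n = 4). Its log2 difference was 0.24 (SE 0.06, limma adjusted p = 0.00770), and it was not called with median-of-ratios scaling (0.11, adjusted p = 0.348) or quantile normalization (0.15, adjusted p = 0.116).

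Of the inhibitor of apoptosis proteins, BIRC2, a ubiquitin ligase of TNF receptor complexes, rose. It was measured at 29.9, 28.4, 27.1 and 27.9 TPM before and 41.8, 39.1, 38.6 and 42.9 TPM after differentiation, without overlap (0.50, SE 0.05, limma adjusted p = 7.97e-05). XIAP, which binds and blocks caspases directly, was at 25.3, 23.2, 22.9 and 24.2 TPM and then at 33.1, 16.9, 25.2 and 34.1 TPM. Replicate 22 was below every undifferentiated library and replicates 21 and 24 well above them (0.14, SE 0.20, limma adjusted p = 0.604). Without replicate 22 the difference was 0.34 (adjusted p = 0.0255), and without replicate 21 it was 0.03 (adjusted p = 0.910).

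Within the anti-apoptotic BCL2 proteins, MCL1 and BCL2 rose. MCL1, a short-lived protein that holds BAK1 in check, was the most abundant of the 4. Its undifferentiated libraries were nearly equal, at 123, 122, 122 and 123 TPM, and the differentiated ones held 173, 151, 170.3 and 176 TPM. All 4 were above the undifferentiated group (0.45, SE 0.05, limma adjusted p = 0.000126). BCL2 itself was at 13.4, 13.7, 11.2 and 11.8 TPM before and 20.5, 13.7, 17.4 and 19.3 TPM after. Replicate 22 sat at the level of undifferentiated replicate 18 and the other 3 were higher (0.46, SE 0.13, limma adjusted p = 0.0149; 0.28 with quantile normalization).

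BCL2L1, which encodes BCL-XL, was measured at 18.8, 21.1, 21.1 and 20.4 TPM before and 24.5, 16.7, 26.1 and 24.7 TPM after differentiation. BCL2L2, which encodes BCL-W, was at 25.8, 23.3, 22.8 and 25.5 TPM and then at 33.8, 22.5, 30.4 and 34.6 TPM. In both genes replicate 22 lay below all undifferentiated libraries while the other 3 lay above them. Neither was called over all libraries, with differences of 0.15 (SE 0.13, limma adjusted p = 0.375) and 0.29 (SE 0.13, limma adjusted p = 0.0957). Without replicate 22 they were 0.29 (adjusted p = 0.00251) and 0.42 (adjusted p = 0.00119). Without replicate 21 they were 0.12 (adjusted p = 0.548) and 0.23 (adjusted p = 0.198).

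Both pore-forming proteins rose. BAX was measured at 73.1, 68.6, 88.4 and 74.8 TPM in undifferentiated cells and at 100.3, 139.9, 121 and 119.7 TPM in differentiated cells. Replicate 22 was here the highest library, and the groups did not overlap (0.65, SE 0.11, limma adjusted p = 0.00140). BAK1 was at 12.7, 12.5, 13.2 and 11.9 TPM before and 16.5, 14.9, 16.7 and 16.8 TPM after, again without overlap. Its log2 difference was 0.34 (SE 0.06, limma adjusted p = 0.00137), and quantile normalization ended the call (0.15, adjusted p = 0.0517).

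The balance of protectors and pore formers was described by ratios of TPM, without a test. The summed BCL2, BCL2L1, BCL2L2 and MCL1 came to 179.6 ± 1.78 TPM before and 239 ± 23.4 TPM after differentiation (SD, n = 4). Summed BAX and BAK1 came to 88.8 ± 8.91 and 136 ± 15.5 TPM. The ratio of the first sum to the second was 2.11, 2.22, 1.74 and 2.09 in undifferentiated libraries and 2.15, 1.32, 1.78 and 1.87 in differentiated ones. Although both sums were higher after 9-cis retinoic acid, their ratio overlapped between the groups, at 2.04 ± 0.206 and 1.78 ± 0.345. Replicate 22 held the lowest ratio. The ratio of BCL2 to BAX was 0.183, 0.199, 0.127 and 0.158 before and 0.204, 0.0977, 0.144 and 0.162 after. It overlapped too, and replicates 21 and 22 were its highest and lowest libraries.

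**Figure D4:**
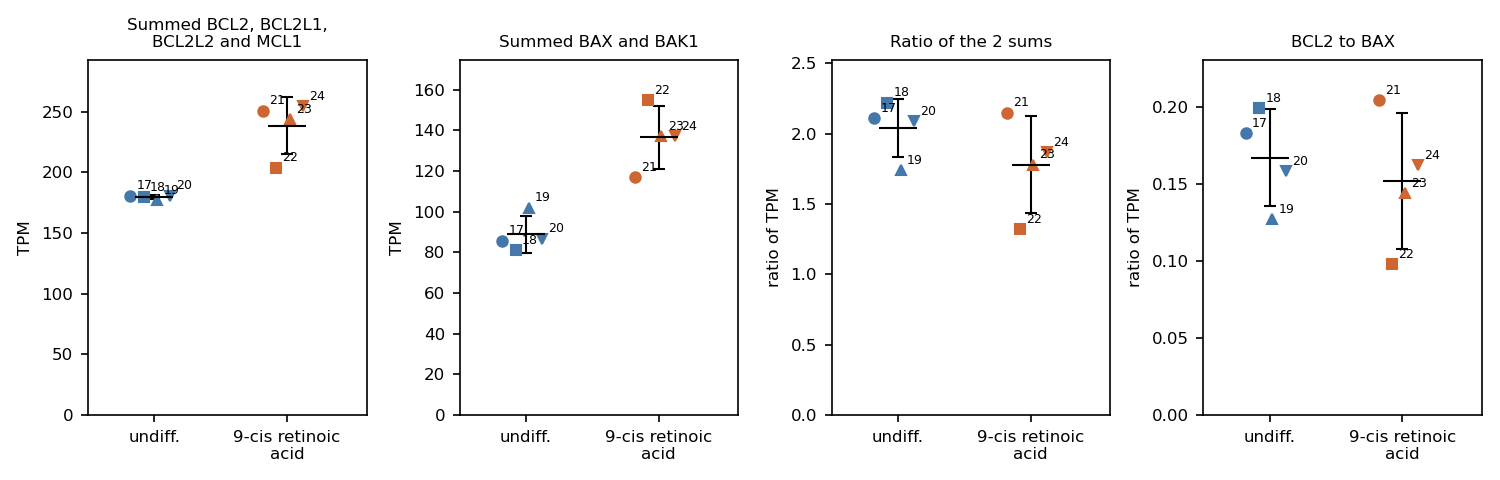
Summed TPM of 4 anti-apoptotic BCL2 genes and of the pore-forming genes BAX and BAK1, the ratio of these sums and the ratio of BCL2 to BAX, for each library (points numbered by replicate) with the mean and SD of each group of 4. Both sums lie higher in all 4 differentiated libraries while both ratios overlap, and replicate 22 gives the lowest value of each ratio.

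The BH3-only proteins were called in both directions. Of the 6 tested, BAD and PMAIP1 rose, BID fell and BCL2L11, BMF and BBC3 were not called. These shares were close to those of all tested genes, of which 33.9% were called higher and 17.4% lower. The median difference of the 6 was 0.04, turning to -0.07 after median-of-ratios scaling and -0.21 after quantile normalization. Over all tested genes these medians were 0.10, -0.02 and -0.07. The summed level of all 8 was 118, 118, 121 and 123 TPM before and 143, 153, 151 and 143 TPM after differentiation, higher in every differentiated library. BAD, whose activity is set by survival kinases, had the largest rise among them. It was measured at 23.4, 22.6, 28.1 and 27.0 TPM before and 46.6, 66.1, 59.2 and 52.5 TPM after differentiation. The lowest differentiated library was well above the highest undifferentiated one (1.11, SE 0.12, limma adjusted p = 8.13e-05). PMAIP1, which encodes NOXA and preferentially binds MCL1, was tight in both groups, at 31.2, 30.9, 29.7 and 31.3 TPM and then at 39.5, 38.5, 39.5 and 38.8 TPM (0.33, SE 0.04, limma adjusted p = 0.000125). Quantile normalization gave a difference of 0.19 and median-of-ratios scaling one of 0.21. Its window holds the p53 element printed above.

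BID, which CASP8 cleaves to couple death receptors to mitochondria, fell. Undifferentiated libraries held 27.2, 27.1, 28.2 and 27.9 TPM and differentiated ones 18.3, 19.9, 18.9 and 18.1 TPM. The groups were well separated (-0.53, SE 0.05, limma adjusted p = 2.65e-05). BID and CYCS were the genes of the set called lower, and both calls held in all 16 limma alternatives. BCL2L11, which encodes BIM, was at 24.7 ± 0.624 and 22.3 ± 4.46 TPM (SD, n = 4) and overlapped (-0.16, SE 0.13, limma adjusted p = 0.343). Median-of-ratios scaling gave a call of lower (-0.29, adjusted p = 0.0250), as did quantile normalization (-0.32, adjusted p = 0.0134). Over protein-coding transcripts alone BCL2L11 was at 17.4 ± 0.218 and 17.6 ± 2.28 TPM and was not called (0.01, adjusted p = 0.938).

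BBC3, which encodes the p53 target PUMA, was at 5.61, 5.90, 5.35 and 5.75 TPM before and 5.07, 6.89, 5.60 and 5.62 TPM after (0.03, SE 0.09, limma adjusted p = 0.841). The differentiated libraries lay on both sides of the undifferentiated ones. BMF, which is held at the cytoskeleton, was at 4.62 ± 0.568 and 4.87 ± 0.789 TPM (SD, n = 4; 0.06, SE 0.12, limma adjusted p = 0.711). HRK, a neuronal BH3-only protein, was below the minimum but did not overlap between groups, at 1.34, 1.56, 1.45 and 1.06 TPM before and 0.288, 0.257, 0.121 and 0.195 TPM after. In a fit without the minimum its difference was -0.95 (SE 0.09, limma adjusted p = 0.000116). BIK was at 0.104 ± 0.0570 and 0.524 ± 0.288 TPM (SD, n = 4), and the groups overlapped. The fit without the minimum called it higher (0.45, SE 0.13, limma adjusted p = 0.0402).

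Among the 9 targets and regulators of p53, 7 rose and MDM4 and SESN1 were not called, with a median difference of 0.73. In the same fit 33.9% of all tested genes were called higher. After median-of-ratios scaling 6 of the 9 were called higher and 1 lower (median 0.61), against 27.1% and 26.1% of all genes. After quantile normalization the counts were also 6 and 1 (median 0.56), against 24.4% and 29.9%. Over protein-coding transcripts alone 6 were called higher and 0 lower (median 0.74). That fit called 5103 of 11959 tested genes higher and 2582 lower. PHLDA3, which restrains AKT signalling, had the largest difference of the 9 genes. It was measured at 6.87, 6.01, 6.70 and 6.01 TPM before and 15.8, 18.4, 16.7 and 16.8 TPM after differentiation, without overlap (1.28, SE 0.07, limma adjusted p = 1.97e-06). GADD45A, a growth arrest and stress protein, was at 7.57, 7.73, 8.45 and 8.16 TPM and then at 14.8, 17.4, 15.7 and 14.4 TPM (0.88, SE 0.07, limma adjusted p = 1.97e-05). SESN2, a sestrin that restrains mTORC1, was at 2.35, 2.35, 2.56 and 2.27 TPM and then at 5.26, 4.85, 5.28 and 5.49 TPM (0.88, SE 0.07, limma adjusted p = 2.11e-05). In both genes the lowest differentiated library was well above the highest undifferentiated one.

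Its relative SESN1, whose window holds a p53 element, did not follow. SESN1 was at 20.4, 20.1, 21.1 and 22.3 TPM before and 21.2, 19.4, 18.7 and 20.4 TPM after, with overlap (-0.07, SE 0.06, limma adjusted p = 0.319). Median-of-ratios scaling (-0.20, adjusted p = 0.0123) and quantile normalization (-0.25, adjusted p = 0.00584) each called it lower. Of the 4 genes with a p53 element in a window, FAS, PMAIP1 and MDM2 were called higher and SESN1 was not called. Of all tested genes, 33.9% were called higher. The MDM2 call was lost with median-of-ratios scaling, with quantile normalization and over protein-coding transcripts alone. A link between the element and the changes was not tested.

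ZMAT3, an RNA-binding zinc finger protein, rose from 13.5 ± 0.352 to 23.3 ± 2.89 TPM (SD, n = 4; 0.74, SE 0.09, limma adjusted p = 0.000154). TP53I3, a quinone oxidoreductase, rose from 14.7 ± 0.757 to 25.3 ± 3.57 TPM (0.73, SE 0.10, limma adjusted p = 0.000319). TP53INP1, a stress-induced cofactor of p53, rose from 16.3 ± 0.204 to 25.7 ± 1.83 TPM (0.62, SE 0.06, limma adjusted p = 4.12e-05). None of these 3 genes overlapped between the groups. For TP53INP1 the added level lay mostly in 1 transcript, TP53INP1-202 (164 residues), at 8.60 ± 0.950 and 17.4 ± 0.754 TPM. TP53INP1-201 (240 residues) was at 7.71 ± 1.08 and 8.28 ± 2.09 TPM. The share of TP53INP1-202 in its gene was 52.8% and 68.0%, a difference that was not called (limma adjusted p = 0.0762).

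MDM2, the ubiquitin ligase that degrades p53, and MDM4, its partner, form the feedback on p53. MDM2 was measured at 17.5, 26.5, 18.6 and 22.6 TPM before and 26.9, 33.5, 31.0 and 28.3 TPM after differentiation. The lowest differentiated library was barely above the highest undifferentiated one (0.48, SE 0.13, limma adjusted p = 0.0148). Median-of-ratios scaling (0.36, adjusted p = 0.0866) and quantile normalization (0.32, adjusted p = 0.113) ended the call, as did a fit over protein-coding transcripts alone (0.49, adjusted p = 0.174). MDM4 was at 41.3, 42.1, 40.1 and 41.4 TPM and then at 49.8, 26.1, 36.1 and 43.8 TPM. Its undifferentiated libraries were nearly equal and its differentiated ones fell on both sides of them (-0.12, SE 0.17, limma adjusted p = 0.601). The ratio of MDM2 to MDM4 was 0.424, 0.630, 0.464 and 0.546 before and 0.541, 1.29, 0.859 and 0.646 after, and the groups overlapped.

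The transcripts of MDM2 differed in how they moved. MDM2-231, a non-coding transcript of 649 bases at chr12:68843066-68844190 (GRCh38, plus strand), was at 5.45, 11.8, 8.30 and 6.22 TPM before and 12.0, 27.5, 16.7 and 13.5 TPM after. These groups did not overlap, although replicates 18 and 21 were close. The other 33 transcripts of MDM2 together came to 13.4 ± 2.68 and 12.5 ± 4.34 TPM (SD, n = 4) and overlapped. Transcripts that start at the internal promoter, beside the p53 element, came to 4.05, 3.90, 2.59 and 4.49 TPM and then to 6.33, 2.44, 5.38 and 6.37 TPM. Replicate 22 was below all undifferentiated libraries there and the other 3 were above them. Transcripts from the upstream promoter came to 3.17 ± 1.21 and 3.11 ± 1.77 TPM. The share of MDM2-231 in the gene was 31.1%, 44.6%, 44.6% and 27.5% before and 44.6%, 82.2%, 54.0% and 47.9% after, and was not called (limma adjusted p = 0.216).

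Shares of transcripts were tested across all genes with at least 5 TPM in each group, and a call needed a difference of at least 10 percentage points. Of the 53 tested transcripts of the set, from 24 genes, 1 was called, against 2.40% of all transcripts tested. It was CASP6-201, which encodes a protein of 293 residues. Its share of CASP6 was 67.4%, 67.9%, 66.0% and 79.1% before and 48.4%, 45.4%, 54.5% and 49.3% after differentiation. The shares did not overlap and their means differed by -20.7 points (limma adjusted p = 0.0216). Within lane 8 the difference was -23.2 points and was not called (adjusted p = 0.206), and leaving out replicate 24 (adjusted p = 0.0543), 17 (0.0598) or 18 (0.0665) also ended the call. Without replicate 21, 3 transcripts were called, CASP6-201 (-20.4 points), APAF1-202 (-14.7 points, adjusted p = 0.0324) and BCL2L11-206 (17.1 points, adjusted p = 0.0358).

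The level of CASP6-201 was nonetheless higher in every differentiated library, at 11.7 ± 0.695 and 44.3 ± 4.32 TPM (SD, n = 4). The level of CASP6-205 (80 residues) was 1.35 ± 0.131 and 12.4 ± 4.73 TPM, and that of CASP6-203 (143 residues) was 0.200 ± 0.271 and 6.80 ± 3.08 TPM. As annotated, these 2 reach only to chr4:109694581 and 109694524, while the minus-strand gene runs to 109688622, so they may be partial forms. The share of CASP6-205 was 8.07% and 13.7% and was not called (limma adjusted p = 0.232), nor was that of the non-coding CASP6-208, at 11.9% and 16.5% (adjusted p = 0.520). The share of CASP6-203 was not tested.

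**Figure D5:**
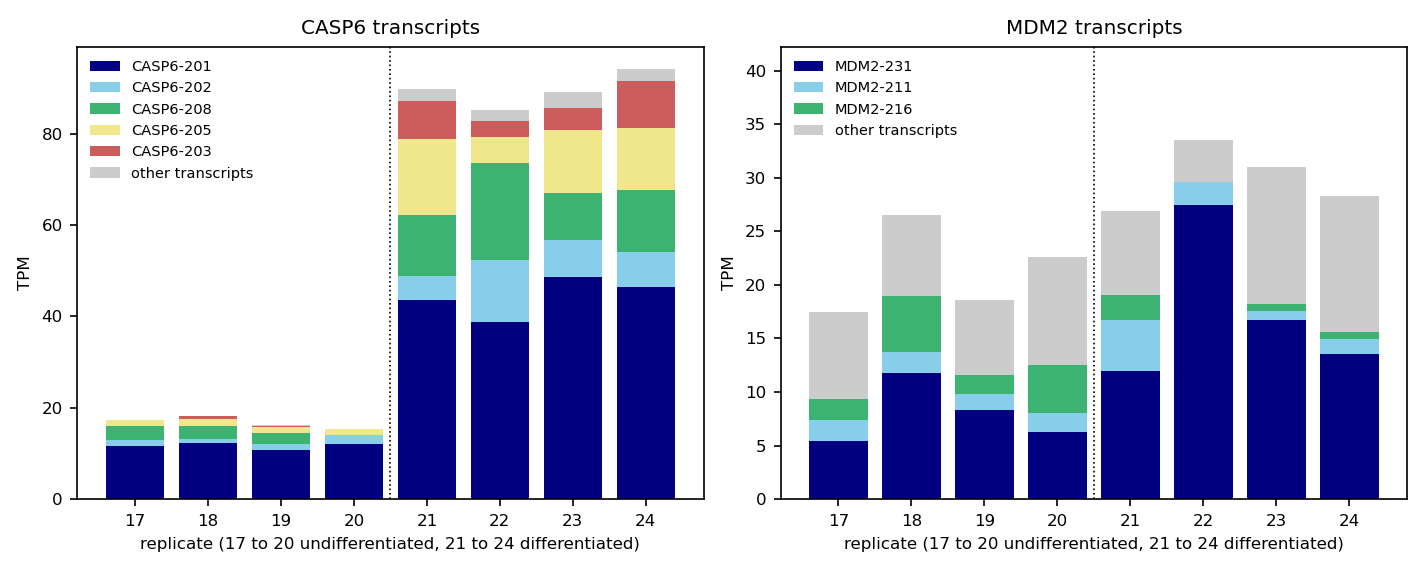
TPM of the transcripts of CASP6 and MDM2 in each library, stacked, with undifferentiated replicates 17 to 20 left of the dotted line and differentiated replicates 21 to 24 right of it. CASP6-201 holds most of CASP6 on the left and about as much as all other transcripts on the right, and MDM2-231 (dark) is larger in all 4 differentiated libraries.

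In BCL2L1, MCL1, BAX and BCL2L11 the most abundant splice form was the same before and after differentiation. For BCL2L1, the long form BCL2L1-201 (233 residues) held 39.8% ± 6.03 and 47.2% ± 4.84 of the gene (limma adjusted p = 0.276). Next came BCL2L1-207 (181 residues), at 18.9% ± 1.93 and 13.0% ± 2.97 (adjusted p = 0.138), and BCL2L1-205 (188 residues), at 17.0% ± 1.03 and 14.3% ± 4.44, neither of them called. Both lie between chr20:31721655 and 31723989, at the 5′ end of this minus-strand gene, which runs to 31664452. They may be partial forms, so the share of the long form is uncertain. BCL2L1-202 (170 residues), annotated with the length of the pro-apoptotic short form, held 2.17% ± 0.949 and 2.92% ± 2.46. For MCL1, the full-length MCL1-202 (350 residues) held 91.3% ± 0.793 and 94.1% ± 1.59, the non-coding MCL1-203 held 7.40% and 5.23%, and the shorter MCL1-201 (271 residues) held 1.26% and 0.685%. The MCL1 shares were outside the range of 10% to 90% that was tested.

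For CASP9, CASP9-201 (416 residues) held 42.7% ± 9.68 and 35.8% ± 4.01 (limma adjusted p = 0.421), and CASP9-202 (266 residues) held 20.5% and 25.1% (adjusted p = 0.240). For BAX, BAX-202 (192 residues) held 51.9% and 54.2% (adjusted p = 0.650) and BAX-201 (218 residues) held 16.2% and 16.3% (adjusted p = 0.968). For MDM4, the full-length MDM4-203 (490 residues) held 57.6% and 58.5% (adjusted p = 0.902) and MDM4-202 (131 residues) held 12.6% and 11.0% (adjusted p = 0.632). BCL2L11-206 (198 residues) held 63.0% ± 2.69 and 77.3% ± 7.03 of its gene (adjusted p = 0.0726), and BCL2L11-216, a substrate of nonsense-mediated decay, held 9.45% and 6.19%. None of these shares was called.

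Genes of the same pathways outside the set were counted for comparison. Of 28 tested other apoptosis genes 13 rose, 3 fell and 12 were not called, with a median of 0.20. Of all tested genes, 33.9% were called higher and 17.4% lower. After median-of-ratios scaling 11 were called higher and 6 lower (median 0.07), against 27.1% and 26.1% of all genes. After quantile normalization the counts were 10 and 6 (median 0.06), against 24.4% and 29.9%. Within lane 8 they were 12 and 1, against 26.0% and 11.0%. The largest differences among them were in CASP4, an inflammatory caspase (0.399 ± 0.0817 and 13.9 ± 1.96 TPM; 3.41, SE 0.11, limma adjusted p = 1.04e-07), and in the TNF receptor TNFRSF1A (5.35 ± 0.673 and 41.7 ± 5.38 TPM; 2.75, SE 0.12, adjusted p = 4.33e-07). BOK, a relative of BAX, followed at 0.578 ± 0.0941 and 4.21 ± 0.195 TPM (1.72, SE 0.09, adjusted p = 1.53e-06). The neurotrophin receptor NGFR was at 0.458 ± 0.108 and 2.17 ± 0.0234 TPM (1.12, SE 0.10, adjusted p = 3.65e-05). CASP4, BOK and NGFR were below 1 TPM in undifferentiated cells and passed the minimum only through the differentiated group, so they could be called in this direction only. With a pseudocount of 0.1 the differences of BOK and NGFR were 2.68 and 2.04.

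Of 27 tested other p53 pathway genes 17 rose, 3 fell and 7 were not called, with a median of 0.43. Of all tested genes, 33.9% were called higher and 17.4% lower. After median-of-ratios scaling 15 were called higher and 5 lower (median 0.30), against 27.1% and 26.1% of all genes. After quantile normalization the counts were 14 and 6 (median 0.31), against 24.4% and 29.9%. PLK2, a stress-responsive kinase, rose from 5.39 ± 0.287 to 89.6 ± 2.58 TPM (3.83, SE 0.05, limma adjusted p = 2.93e-09). BTG2, an antiproliferative protein, rose from 8.52 ± 0.416 to 76.8 ± 2.61 TPM (3.03, SE 0.05, adjusted p = 4.85e-09). CDKN1A, the cell cycle inhibitor p21, rose from 16.6 ± 1.71 to 74.8 ± 2.26 TPM (2.11, SE 0.07, adjusted p = 1.34e-07), and SPATA18, a mitochondrial quality control protein, from 1.79 ± 0.236 to 10.2 ± 1.47 TPM (a ratio of 5.71, adjusted p = 2.39e-06). These 4 differences were larger than that of any of the 9 genes listed as targets and regulators of p53. CASP6, listed with the caspases, had a larger difference (2.35) than CDKN1A and SPATA18.

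Markers of the cells were read beside these results. All 9 noradrenergic neuroblastoma markers were present, with sums of 2244 to 2333 TPM in undifferentiated and 1434 to 1655 TPM in differentiated libraries. The 5 markers of cycling cells, which include the apoptosis inhibitor BIRC5, summed to 914 to 939 and 535 to 587 TPM. Of 5 Schwann cell, 5 blood cell and 4 epithelial markers, 3, 1 and 2 had a mean of at least 1 TPM. Schwann cell markers summed to 25.8 to 28.1 and 59.7 to 68.5 TPM with SOX10 at 0 in every library, blood cell markers to 1.24 to 1.57 and 20.4 to 24.0 TPM with CD3E at 0, and epithelial markers to 1.52 to 1.90 and 11.4 to 16.1 TPM with KRT5 at 0. The blood and epithelial sums after differentiation were mostly CD68 (20.9 ± 1.69 TPM) and KRT18 (12.1 ± 1.69 TPM). Of the 3 endothelial markers, CDH5 and VWF were below 1 TPM in every library, and no value was found for PECAM1. The part of cycling and of these other markers in the changes of the 37 genes was not tested.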

How the data were processed

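The deposited file gives TPM for 194993 Ensembl transcripts in each of 8 libraries, 4 undifferentiated and 4 differentiated, grouped by the cell type label. Tools named in the submitters' processing notes are FastQC 0.11.2 and Salmon, and the build is GRCh37. Not given in the sources used here are the version and settings of Salmon, its use of strand and the annotation release. Per the labels' protocols, libraries were made with a stranded mRNA kit from RNA extracted on columns. TPM scales each library to 1000000, so read depth is unknown and no interval for counting error can be given.

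Transcripts were matched by identifier to GENCODE 29 (GRCh38), which served for names, lengths and positions. Of them 180930 (92.8%) matched, holding 93.2% to 95.0% of the TPM of a library. Gene levels are sums over matched transcripts. Salmon divides shared reads between similar sequences, so genes with processed pseudogenes or overlapping neighbours (CYCS, BCL2L2) are uncertain, and the division between transcripts of a gene is an estimate.

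Genes with a mean of at least 1 TPM were tested two-sided on log2(TPM + 1) with limma 3.58.1 in R 4.3.3 (eBayes with a trend), with no covariate besides the group, and Benjamini-Hochberg adjustment over all of them. Transcript shares were tested with limma on the arcsine square root of the share, for mean shares of 10% to 90% in genes with at least 5 TPM in each group. Ratios and list counts have no test. Sums and counts were made with pandas 2.3.3 and numpy 2.4.6 in Python 3.11.15. Promoter windows are from RefSeq (GRCh38.p14).

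The alternatives were another scaling, pseudocount, minimum level, variance model or gene sum, lane 8 alone, an exact permutation test, and each replicate left out. All 37 genes are named. From the lists of other genes the rule named the 4 called genes with the largest difference each, plus CDKN1A and a few genes that are not reported here. Of the transcripts it named every called one and the 2 most abundant of BCL2L1, MCL1, BCL2L11, CASP9, BAX and MDM4. The other transcripts were chosen after their values were seen. The genes, the lists and the tests were chosen with earlier results of these data known. Both fits were tested on simulated data before use.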

Additional observations from a re-analysis of the deposited data

Results flagged for a closer look

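In 3 of the 80 groups of 4 libraries examined, 1 library lay far from the other 3, by a gap to the nearest library that took up most of the range of the group. Chance gives this in about 1 in 20 groups. The 3 cases are all differentiated replicate 22, in both directions. For BCL2L1 it held 16.7 TPM against 24.5 to 26.1 TPM in the others, and the gap was 0.830 of the range. For BAK1 it held 14.9 TPM against 16.5 to 16.8 TPM, a gap of 0.864. For DIABLO it held 119 TPM against 103 to 105 TPM, a gap of 0.870.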

How the results depend on the processing

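With an exact two-sided permutation test in place of limma, 4 libraries against 4 cannot give a p below 0.0286, or below 0.0576 after adjustment. It therefore called 0 of the 8761 genes and 0 of the 21 higher and 2 lower genes of the set, while 8475 genes and 23 of the set were at an unadjusted p under 0.05. Median-of-ratios scaling called 4 genes of the set lower, and quantile normalization also called 4. Limma called 0 transcript shares of the set within lane 8, where 5 were at an unadjusted p under 0.05 with a difference of at least 10 points. With 1 replicate left out it called from 0 to 3. Over protein-coding transcripts alone, the ratio of BCL2 to BAX in undifferentiated cells was 0.211, the ratio of the summed protectors to pore formers there was 2.39, and the ratio of MDM2 to MDM4 was 0.120 before and 0.212 after differentiation. No direction of a called gene was reversed in any alternative. No paired analysis was possible because the groups share no replicate numbers. Read depth is unknown, which limits what can be said of genes near 0 TPM, CASP8 among them. Lane and group are partly confounded, since lane 7 holds undifferentiated libraries only.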
